A study of Mus musculus with 6 samples.

Results

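The constitutive proteasome genes were followed in RAW 264.7 cells, an established mouse macrophage line, exposed for 4 h to bacterial lipopolysaccharide (LPS) at 100 ng/ml together with its carrier, LPS-binding protein (LBP), at 100 pM. Members were the genes whose annotated symbol begins with Psma to Psmg and a digit, or is Pomp, leaving out the immunoproteasome subunits Psmb8, Psmb9 and Psmb10. That symbol rule found 50 probes of 43 genes, out of 16281 probes and 10698 singly named genes in the series. Of the 43 genes, 41 had a value on all 6 arrays. Psmb4 was measured in 2 of the 3 sets, and Psme1 was listed at 0, read as not measured, on all 6 arrays. Among the 41 were 14 subunits of the core particle, 16 of the regulatory cap, 3 activators and 6 assembly chaperones. The other two matched by symbol without being subunits: Psmb5-ps, a pseudogene, and Psmc3ip, a meiotic recombination factor.

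The control RNA was that of cells kept for 4 h without LPS or LBP. Each of 6 two-colour arrays paired it with RNA of treated cells. In 3 arrays (sets 1 to 3) the treated RNA carried Cy5, and in 3 arrays, also numbered 1 to 3, it carried Cy3. The line derives from a virus-induced tumour, and separate cultures for the sets are not recorded, so p-values measure only the spread between these arrays, which may be technical. The labels do not say that arrays of 1 number shared RNA, and arrays of 1 number did not deviate together, so averaging them by number is a convention of the test and the SD over sets is the spread of those averages. Without the set number, a limma fit over 6 arrays with a dye term gave the same changes and 14 members higher. Between 14195 and 15027 probes per array had a value other than 0.

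Every value below is a log2 ratio of treated over untreated RNA, and a gene's change is the mean over 3 sets of the average of the set's 2 arrays. The direction is likely rather than settled. The labels call Cy5 the test and Cy3 the control on every array, but the table does not state its ratio, and if it were the inverse, each sign given here would flip. The features tested had array medians from -0.012 to 0.013, so a value of 0 is close to that of the typical feature. A ratio from bulk RNA cannot tell fewer transcripts per cell from fewer transcribing cells, and it gives no expression level. Of 8 macrophage marker genes 7 were measured, with 5 higher and 1 lower after treatment (14.0% and 15.0% of all features), and of 4 osteoclast markers 2 were higher. Markers of T cells, B cells and fibroblasts had 0 called of 9 by limma.

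The proteasome is the barrel-shaped protease that degrades ubiquitin-tagged proteins in the cytosol and nucleus. Its core particle (20S) stacks rings of α and β subunits with the proteolytic sites inside, and its regulatory cap (19S) recognises ubiquitin, unfolds the substrate with a ring of ATPases and feeds it in. Activators such as PA28 can open the core in place of the cap. In macrophages the complex also removes the inhibitor of NF-κB after LPS sensing and produces peptides for MHC class I.

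After treatment 12 of the 41 members were higher and 1 was lower (limma, adjusted p below 0.05 over 11364 features). The higher genes were the core subunits Psma4 and Psma6, the cap subunits Psmc1, Psmc5, Psmc6, Psmd1, Psmd8, Psmd12 and Psmd14, the activator subunit Psme2b and the chaperones Pomp and Psmd10. The lower gene was the chaperone Psmg2. Among all features 14.0% were called higher and 15.0% lower, against 29.3% and 2.44% of the members. Calls in either direction took 31.7% of the members, close to the 29.0% of all features. The members' leaning was thus in sign rather than in how often they were called: 35 of 41 had a change above 0 (85.4%), against 50.3% of all features. Their median change was 0.079, against 0.00079 for all features. On all 6 arrays 13 members lay above 0 (background 12.4%) and 2 lay below 0 (background 13.3%).

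The sizes were small. Psme2b changed most, at 1.58-fold, and no other member passed a limma treat test against a 1.2-fold change, which called 4.66% of all features higher and 2.72% lower. Without set 1 the count of members higher was 6, with Pomp, Psmc5, Psmc6, Psmd1, Psmd12 and Psmd14 no longer called, and it was 3 on the 3 Cy5 arrays alone and 14 on the 3 Cy3 arrays alone. The plot of members by array shows the changes in order of class.

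**Figure D1:**
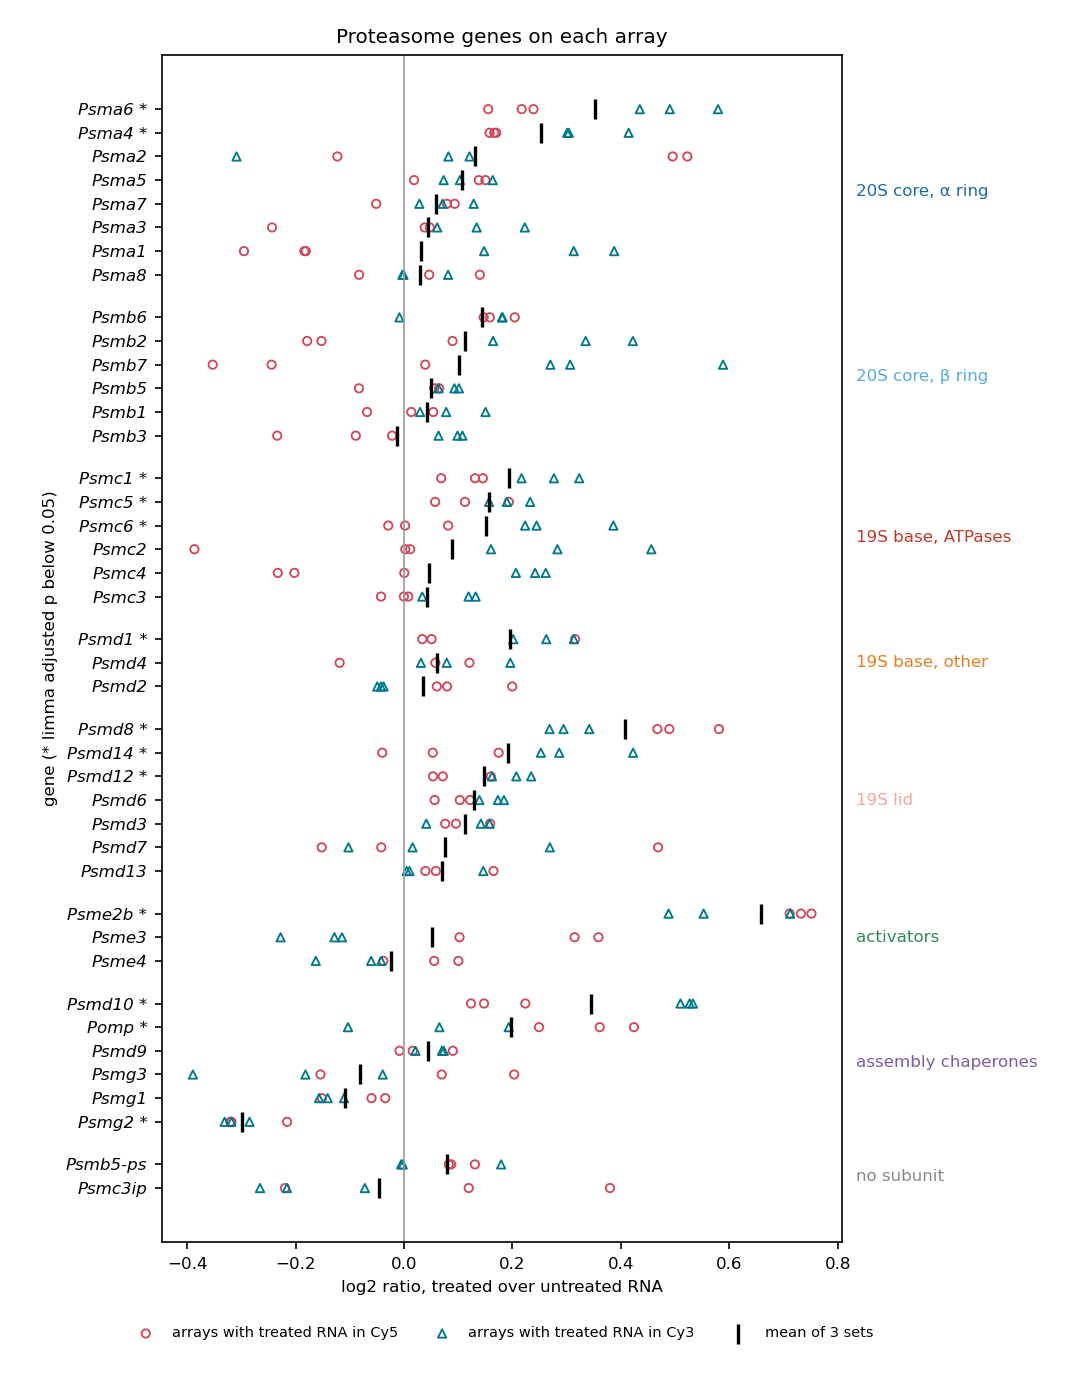
Log2 ratio of treated over untreated RNA (horizontal axis) for the 41 members measured on all 6 arrays, with each array as a point marked by dye orientation, a bar at the mean of 3 sets and an asterisk where limma's adjusted p was below 0.05. Psme2b lies farthest to the right at 0.66, Psmg2 farthest to the left at -0.30, and most core and cap subunits lie between 0 and 0.2.

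Promoter sequence was available for 32 of the 41 members. The upstream stretches shown here belong to core and cap genes that were higher after treatment and hold the letters TGANNNNGC. This pattern is a loose form of the core of the antioxidant response element, which NRF1 and NRF2 bind. Through that element proteasome genes are known to be induced together. A match to the loose pattern need not be such an element. Capitals mark matches on either strand. Psma6 had 2 promoter windows, each with a match, and the stretch at chr12:55398707-55398766 is not shown. Coordinates are those of RefSeq's table for GRCm38.p6, plus strand, which is also the strand of each gene, read 5′ to 3′.

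Psma6, chr12:55384026-55384085: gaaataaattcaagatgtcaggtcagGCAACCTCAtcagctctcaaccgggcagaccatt
Psma4, chr9:54950706-54950765: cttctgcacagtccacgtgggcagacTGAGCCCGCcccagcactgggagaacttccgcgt
Psmc6, chr14:45329574-45329633: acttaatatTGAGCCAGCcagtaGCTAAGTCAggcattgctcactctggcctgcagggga
Psmd1, chr1:86064369-86064428: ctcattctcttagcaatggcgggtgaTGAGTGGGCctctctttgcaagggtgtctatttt
Psmd12, chr11:107479468-107479527: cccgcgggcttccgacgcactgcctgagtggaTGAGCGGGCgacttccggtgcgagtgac

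These letters are common. Within windows of 250 bases before to 50 after the start, they occurred in 6 of 12 members called higher (50%), 11 of 20 not called (55%) and 45% of all 27025 genes with a window. By class they were in 7 of 10 core genes and 6 of 13 cap genes. The interferon-stimulated element, searched on both strands as GAAA, any 2 bases and GAAA, was in 0 of 12 members called higher, 3 of 20 not called and 3.99% of all genes. For the κB element, searched as GGGA, any 2 bases and TTCC, the counts were 0 of 12, 1 of 20 and 1.63%. The letters CCAAT were in 4 of 12, 9 of 20 and 41.1%. A match is a description of the sequence and not evidence of binding.

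The cap was the class with the most members higher. All 16 measured cap subunits had a change above 0, 7 of them were called higher (43.8%, against 14.0% of all features), none was lower (15.0% of all features), and their median change was 0.12. The lid, which removes the ubiquitin chain, held 3 of the 7 calls. Psmd8, a small lid subunit that joins late in lid assembly, stood at 0.47, 0.49 and 0.58 on the arrays with treated RNA in Cy5 (sets 1 to 3) and at 0.27, 0.34 and 0.29 on those with it in Cy3. All 6 arrays were above 0, and the Cy5 arrays were the higher ones. Its change was 0.41 ± 0.036 (SD, n = 3 sets), or 1.33-fold, with a limma adjusted p of 3.39e-04.

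Psmd14, the deubiquitinase that cuts ubiquitin chains off the substrate, was at 0.17, 0.053 and -0.040 with treated RNA in Cy5 and at 0.42, 0.29 and 0.25 with it in Cy3. The Cy3 arrays were all above the Cy5 arrays, one of which lay below 0. Its change was 0.19 ± 0.098 (limma adjusted p = 0.0265). Psmd12, a scaffold subunit of the lid, gave 0.16, 0.053 and 0.072 on the Cy5 arrays and 0.16, 0.21 and 0.23 on the Cy3 arrays, all above 0, for a change of 0.15 ± 0.016 (limma adjusted p = 0.0325). The lid's scaffold subunits Psmd6 and Psmd3 did not pass the test. Psmd6 was at 0.10, 0.057 and 0.12 on the Cy5 arrays and at 0.18, 0.17 and 0.14 on the Cy3 arrays, a change of 0.13 with a 95% interval of 0.033 to 0.23 (limma adjusted p = 0.0530). Psmd3 was at 0.076, 0.16 and 0.096 on the Cy5 arrays and at 0.041, 0.16 and 0.14 on the Cy3 arrays, a change of 0.11 with an interval of 0.0091 to 0.21. Psmd7, the partner of Psmd14, and the scaffold subunit Psmd13 did not pass either, with changes of 0.076 (-0.057 to 0.21) and 0.071 (-0.029 to 0.17).

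In the base of the cap, 3 of the 6 ATPases, which form the ring that unfolds the substrate, were higher (50%, against 14.0% of all features). Psmc1, whose tail helps to open the gate of the core, was at 0.13, 0.069 and 0.15 on the Cy5 arrays and at 0.22, 0.28 and 0.32 on the Cy3 arrays. Every array was above 0, and the change was 0.19 ± 0.035 (limma adjusted p = 0.0120). Psmc5 was at 0.11, 0.19 and 0.057 on the Cy5 arrays and at 0.19, 0.16 and 0.23 on the Cy3 arrays, a change of 0.16 ± 0.016 (limma adjusted p = 0.0259). Those orientations overlapped, with no array below 0. Where limma was fitted on single probes, 1 Psmc5 probe was called (0.18, adjusted p = 0.0229) and the other was not (0.13, adjusted p = 0.0687). Psmc6 was at 0.081, 0.0020 and -0.029 on the Cy5 arrays, which straddled 0, and at 0.39, 0.24 and 0.22 on the Cy3 arrays, a change of 0.15 ± 0.073 (limma adjusted p = 0.0469).

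The other three ATPases did not pass. Psmc2 was at 0.0024, -0.39 and 0.011 on the Cy5 arrays and at 0.28, 0.46 and 0.16 on the Cy3 arrays, a change of 0.088 (-0.016 to 0.19). Psmc4 was at -0.23, 0.00053 and -0.20 and at 0.21, 0.26 and 0.24, in the same order, a change of 0.046 (-0.065 to 0.16). For both averages the orientations did not overlap, but the probes of each gene differed. For Psmc2, 1 probe was at -0.11, -0.92 and -0.050 on the Cy5 arrays and at 0.50, 0.84 and 0.31 on the Cy3 arrays, and the other was at 0.11, 0.14 and 0.073 and at 0.063, 0.076 and 0.014, higher with Cy5. For Psmc4, 1 probe was above 0 on all 6 arrays, at 0.034, 0.020 and 0.055 and at 0.067, 0.18 and 0.22. The other Psmc4 probe was at -0.50, -0.019 and -0.46 and at 0.35, 0.34 and 0.26. Psmc3 had a change of 0.042 (-0.056 to 0.14).

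Of the 3 non-ATPase subunits measured in the base, Psmd1, one of the large ring-shaped scaffolds, was higher. Its values were 0.32, 0.051 and 0.034 on the Cy5 arrays and 0.31, 0.26 and 0.20 on the Cy3 arrays, with set 1 the highest in both orientations. The change was 0.20 ± 0.10 (limma adjusted p = 0.0263). Psmd4, a ubiquitin receptor, was at 0.058, 0.12 and -0.12 on the Cy5 arrays and at 0.20, 0.031 and 0.079 on the Cy3 arrays, a change of 0.061 (-0.049 to 0.17). Psmd2, the other large scaffold and the docking site of ubiquitin shuttle factors, was at 0.079, 0.20 and 0.061 on the Cy5 arrays and at -0.049, -0.042 and -0.038 on the Cy3 arrays, a change of 0.035 (-0.065 to 0.14). On the probe used for these values, every Cy5 array was above 0 and every Cy3 array below it. A second Psmd2 probe had a value on 5 arrays and was left out. It was at 0.20, 0.33 and 0.082 on the Cy5 arrays and at 0.042 and 0.014 on the Cy3 arrays of sets 1 and 3. Psmd11 and Adrm1 were not analysed here.

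In the core, 13 of 14 measured subunits had a change above 0, but only 2 were called higher (14.3%, against the background of 14.0%) and none lower. The median change was 0.080. Both calls were α subunits, which form the outer rings and the gate. Psma6 was at 0.24, 0.16 and 0.22 on the Cy5 arrays and at 0.49, 0.58 and 0.43 on the Cy3 arrays. All 6 arrays were above 0, and the Cy3 arrays were the higher ones without overlap. The change was 0.35 ± 0.023, or 1.28-fold (limma adjusted p = 6.35e-04). Psma4 was at 0.16, 0.17 and 0.17 on the Cy5 arrays and at 0.30, 0.30 and 0.41 on the Cy3 arrays, again without overlap, with a change of 0.25 ± 0.035, or 1.19-fold (limma adjusted p = 0.00358).

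The other six α subunits did not pass. Psma2 was at 0.50, -0.12 and 0.52 on the Cy5 arrays and at -0.31, 0.12 and 0.082 on the Cy3 arrays, a change of 0.13 ± 0.16 (-0.015 to 0.28). The sets of Psma2 spread more widely than its mean. Psma5 was at 0.15, 0.019 and 0.14 on the Cy5 arrays and at 0.073, 0.16 and 0.10 on the Cy3 arrays, a change of 0.11 (0.011 to 0.20). Psma7, Psma3, Psma1 and Psma8, the last a paralogue of Psma7 used in the testis, had changes from 0.030 to 0.058, all with intervals that include 0.

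None of the 6 β subunits measured in all sets was called, against 29.0% of all features. Psmb6, which carries the caspase-like site, was at 0.15, 0.16 and 0.20 on the Cy5 arrays and at -0.0085, 0.18 and 0.18 on the Cy3 arrays. Only the Cy3 array of set 1 was not above 0, and the change of 0.14 (0.037 to 0.25) fell just outside the threshold (limma adjusted p = 0.0523). Psmb2 was at -0.15, -0.18 and 0.090 on the Cy5 arrays and at 0.16, 0.42 and 0.33 on the Cy3 arrays, a change of 0.11 (-0.0079 to 0.23). The other catalytic subunits, Psmb7 with the trypsin-like site and Psmb5 with the chymotrypsin-like site, had changes of 0.10 (-0.029 to 0.23) and 0.049 (-0.050 to 0.15). Psmb1 and Psmb3, which are not catalytic, had changes of 0.043 and -0.012. Psmb4, measured in sets 2 and 3 alone, had a change of 0.11 over those sets, with a limma adjusted p of 0.237 where features measured in at least 2 sets were kept.

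The changes of core and cap members overlapped, and the order of their medians differed between sets. The cap's median exceeded the core's by 0.083 in set 1 and by 0.062 in set 2 and was 0.014 below it in set 3. The mean difference of core minus cap was -0.044 ± 0.051 (SD, n = 3 sets), less than its spread. On the arrays of each orientation alone the cap's median was the higher (0.093 against 0.024 in Cy5, 0.20 against 0.12 in Cy3). The α ring median was 0.083 and the β ring median 0.075, and the lid and ATPase medians were 0.13 and 0.12. Core minus activators ran at -0.029, -0.057 and 0.11 over the sets, changing sign, whereas cap minus activators was above 0 in all 3 sets (0.054, 0.0047 and 0.095). That sign did not hold by orientation. The activator median was above the cap's on the Cy5 arrays alone (0.26 against 0.093) and below it on the Cy3 arrays alone (-0.088 against 0.20). No test was made of these class differences. The plot of classes shows this overlap.

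**Figure D2:**
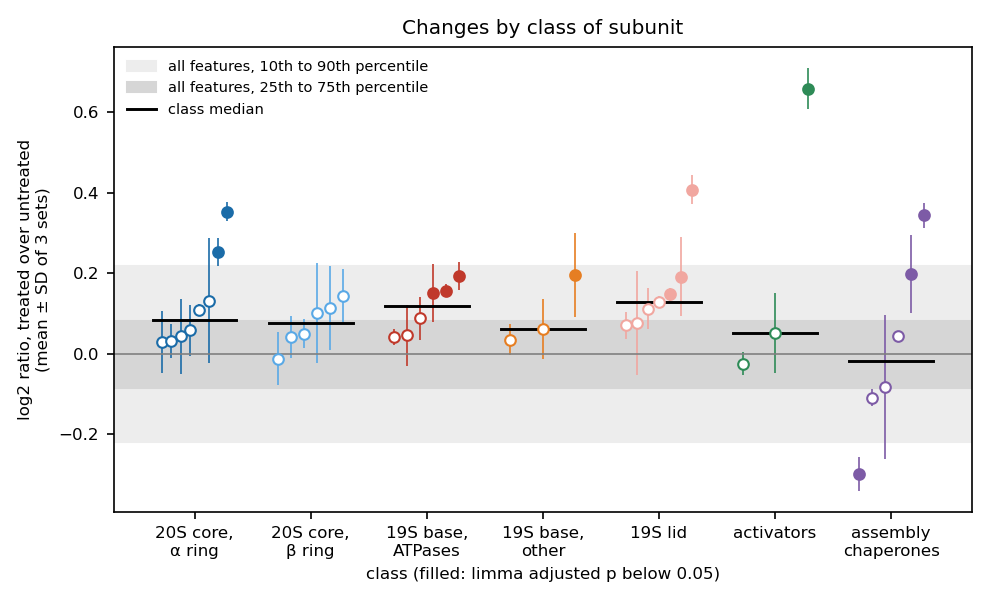
Change of each subunit, activator or chaperone (vertical axis, mean log2 ratio of treated over untreated, with SD of 3 sets) by class, filled where limma's adjusted p was below 0.05, with black lines at class medians and grey bands for the middle of all 11364 features. Ring, base and lid medians lie between 0.061 and 0.13, most members lie within the bands, and Psme2b stands apart at 0.66.

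The activators moved unequally. Psme2b was at 0.73, 0.71 and 0.75 on the Cy5 arrays and at 0.49, 0.71 and 0.55 on the Cy3 arrays. All 6 arrays lay well above 0, and the Cy3 array of set 2 was level with the Cy5 arrays. The change was 0.66 ± 0.051, or 1.58-fold (limma adjusted p = 3.57e-05). Its probe is annotated to Psme2b, a near-identical copy of Psme2, which encodes the β subunit of the interferon-inducible activator PA28, so transcripts of the copies cannot be told apart.

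Psme3, the nuclear relative of PA28, was at 0.31, 0.36 and 0.10 on the Cy5 arrays and at -0.13, -0.11 and -0.23 on the Cy3 arrays. Its orientations were on opposite sides of 0, and the change of 0.051 had an interval of -0.069 to 0.17 (limma adjusted p = 0.524). Psme4, the large activator PA200, was at 0.10, -0.038 and 0.056 on the Cy5 arrays and at -0.16, -0.061 and -0.042 on the Cy3 arrays, a change of -0.025 (-0.12 to 0.074). The class median of 0.051 is the value of Psme3, and it ran from 0.015 to 0.11 without 1 set (0.030 without set 1, 0.015 without set 2 and 0.11 without set 3).

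The immunoproteasome subunits, which replace the catalytic β subunits in cells exposed to interferon, gave values of the size of Psme2b. Psmb10 changed by 0.72 ± 0.082 (limma adjusted p = 3.49e-05) and Psmb8 by 0.66 ± 0.097 (limma adjusted p = 7.01e-05). Psmb9 did not pass (0.18 ± 0.17, limma adjusted p = 0.0829), with 0.85, 0.068 and 0.072 on the Cy5 arrays and -0.083, 0.053 and 0.14 on the Cy3 arrays, set 1 in Cy5 standing above the rest. The subunits they replace, Psmb7, Psmb5 and Psmb6, were all below 0.15.

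The assembly chaperones went in both directions, with 2 of 6 higher, 1 lower and a median of -0.019. The shares were 33.3% higher and 16.7% lower, against 14.0% and 15.0% of all features. Psmg2, which pairs with Psmg1 to start the α ring, was at -0.32, -0.22 and -0.32 on the Cy5 arrays and at -0.33, -0.28 and -0.32 on the Cy3 arrays. All 6 arrays lay below 0 within a narrow range. The change was -0.30 ± 0.041 (limma adjusted p = 0.00172). Its partner Psmg1 was at -0.060, -0.15 and -0.035 on the Cy5 arrays and at -0.16, -0.11 and -0.14 on the Cy3 arrays, a change of -0.11 (-0.21 to -0.011) that did not pass. Psmg3, a chaperone of the same step, was at 0.070, -0.15 and 0.20 and at -0.18, -0.39 and -0.039, in the same order, a change of -0.082 (-0.24 to 0.078).

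Psmd10 (gankyrin), a chaperone of the base, was measured by 2 probes. Their average was at 0.15, 0.22 and 0.12 on the Cy5 arrays and at 0.53, 0.53 and 0.51 on the Cy3 arrays, without overlap and all above 0. The change of Psmd10 was 0.34 ± 0.031, or 1.27-fold (limma adjusted p = 7.60e-04). Its probes differed, with changes of 0.11 (adjusted p = 0.174) and 0.57 (adjusted p = 8.75e-05) where limma was fitted on single probes. The uncalled probe was at -0.20, 0.12 and -0.34 on the Cy5 arrays and at 0.53, 0.27 and 0.32 on the Cy3 arrays. The called probe was at 0.50, 0.33 and 0.59 and at 0.53, 0.80 and 0.70, in the same order, and its orientations overlapped. Pomp, which is needed to complete the core and is degraded by it, was at 0.42, 0.36 and 0.25 on the Cy5 arrays and at 0.19, -0.10 and 0.065 on the Cy3 arrays. The Cy3 arrays straddled 0, and the change was 0.20 ± 0.097 (limma adjusted p = 0.0226). Psmd9, another base chaperone, had a change of 0.044 (-0.053 to 0.14).

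Neither gene that matched by symbol alone was called. Psmb5-ps was at 0.13, 0.083 and 0.087 on the Cy5 arrays and at 0.18, -0.0052 and -0.0023 on the Cy3 arrays, a change of 0.079. Psmc3ip was at 0.38, 0.12 and -0.22 and at -0.27, -0.072 and -0.22, in the same order, a change of -0.046. Without these, the 39 remaining members had a median change of 0.088.

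Dye orientation moved with the core and cap values. The mean was higher on the Cy3 arrays than on the Cy5 arrays for 25 of 41 members and for 23 of the 30 core and cap subunits, among them all 6 ATPases (Psmc2 through 1 of its 2 probes), against 5621 of 11364 features. Taking each gene's mean over the 3 arrays of an orientation, the cap's median was 0.093 in Cy5 and 0.20 in Cy3, and the core's was 0.024 and 0.12. The orientation means lay on opposite sides of 0 for 15 members (36.6%, against 49.3% of all features). For 4 members (9.76%, against 13.0% of all features) every array of each orientation did so: Psma1, Psmb3, Psmd2 (on its probe measured on all 6 arrays) and Psme3. A limma test of the orientation difference over sets called 0% of features and 0 members, with 13 members and 2630 features at an unadjusted p below 0.05. Fitted over 6 arrays with a dye term, limma called 554 features, among them Psma1 (adjusted p = 0.0401) and Psmd10 (adjusted p = 0.0420). Each change is a mean over 3 arrays of each orientation, in which a dye effect of equal size in both cancels.

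**Figure D3:**
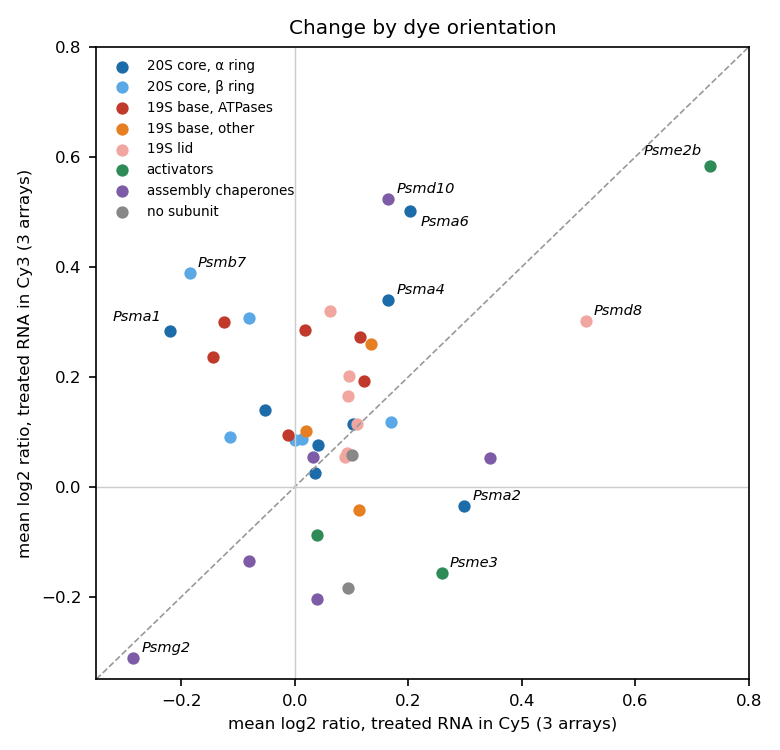
Mean log2 ratio of treated over untreated on the 3 arrays with treated RNA in Cy5 (horizontal axis) against the 3 arrays with it in Cy3 (vertical axis), one point per member, coloured by class, with the line of equality dashed. Psmg2 (-0.28 and -0.31) lies near the line, Psme2b (0.73 and 0.58) and Psmd8 (0.51 and 0.30) lie below it, and 23 of the 30 core and cap members lie above it.

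Genes that work with the proteasome were taken from lists of pathway members. Of 19 proteasome-associated genes, such as ubiquitin shuttles and deubiquitinases, 10 were measured, with 1 higher and 2 lower, shares near those of all features (14.0% and 15.0%), and a median of 0.033. The higher gene was Zfand5 (0.14 ± 0.025), a ubiquitin-binding protein that activates the proteasome, and the lower genes were the shuttle factors Ubqln4 (-0.26 ± 0.024) and Ubqln2 (-0.18 ± 0.057). Of 10 genes of p97, the ATPase that extracts ubiquitinated proteins, and its partners, 5 were measured and 1 was higher, Ngly1 (0.38 ± 0.024, limma adjusted p = 4.28e-04), the deglycosylase that also processes NRF1.

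Among 12 transcription regulators of proteasome genes 11 were measured, with 5 higher (45.5%, against 14.0% of all features), none lower (15.0%) and a median of 0.11. The largest changes were in Mafk (1.28 ± 0.030) and Maff (0.34 ± 0.069), small MAF partners of NRF1 and NRF2, and Stat3 (0.89 ± 0.075), a cytokine signal transducer. Nfe2l1, which encodes NRF1, was also higher (0.30 ± 0.11, limma adjusted p = 0.00446), as was Keap1 (0.18 ± 0.052, limma adjusted p = 0.0172), whose product holds NRF2 for degradation. Nfe2l1 was at 0.33, -0.087 and 0.11 on the Cy5 arrays and at 0.49, 0.68 and 0.27 on the Cy3 arrays. Keap1 was at 0.0051, -0.012 and -0.024 on the Cy5 arrays and at 0.34, 0.50 and 0.31 on the Cy3 arrays. Its orientation difference had an adjusted p of 0.0451 where limma was fitted over 6 arrays with a dye term. Nfe2l2, which encodes NRF2, had a change of -0.027 and was not called. Of 10 genes that handle the peptides a proteasome makes 8 were measured, with 4 higher (50%, against 14.0% of all features) and a median of 0.18. These were the transporter genes Tap1 (1.85 ± 0.048) and Tap2 (0.52 ± 0.056), the loading factor Tapbp (1.09 ± 0.16) and the trimming peptidase Erap1 (0.27 ± 0.047). None of the 6 genes of ubiquitin and its activating enzymes listed was analysed here.

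**Figure D4:**
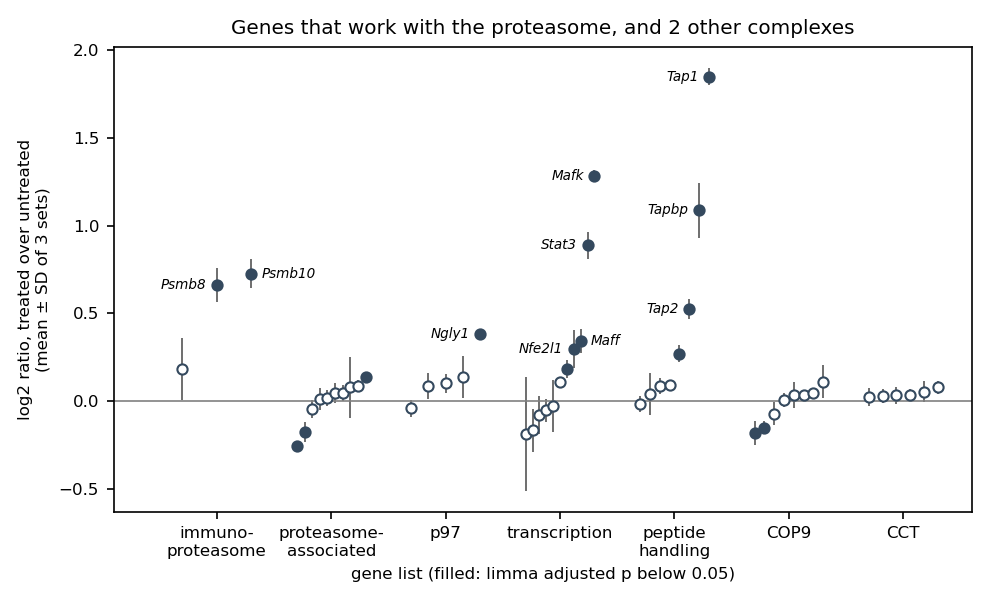
Change (vertical axis, mean log2 ratio of treated over untreated, with SD of 3 sets) of each measured gene in the lists of related genes, filled where limma's adjusted p was below 0.05. Tap1 (1.85), Mafk (1.28) and Tapbp (1.09) are highest, 2 COP9 genes were called lower, and no CCT gene was called.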

How the data were processed

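Values of 6 two-colour arrays were used from a deposited table of log2 ratios, 1 per probe and array. The log2 base follows from the largest value, 6.643856, the log2 of 100. The scanner, background correction, normalization and build are not given in the sources used here. An exact 0 was read as not measured, which left 13415 probes measured on every one of the 6 arrays. Signs were turned on the 3 arrays where Cy3 labelled the treated RNA. Probes were named from GEO's platform annotation: 13738 had 1 symbol, 52 several and 2491 none. Probes of a gene were averaged, giving 11364 features with the unnamed ones.

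Each set's 2 arrays were averaged, and a mean of 0 over the 3 sets was the null hypothesis of limma 3.58.1 in R 4.3.3 (lmFit, eBayes), with Benjamini-Hochberg adjustment over all features. On simulated data, in 10 runs with 200 of 11364 features changed, the test recovered 49.4% of 1.2-fold and 98.8% of 1.5-fold changes, and 5.13% of calls were false. Far fewer features changed there than the 29.0% called here. The adjusted p depends on that share, so recovery in these data may differ. The number of arrays limits the precision. Array values were shown for each member called and for the 2 uncalled members of largest change in each class, and at most 3 called genes of other lists by size of change, with further ones named after their values were seen. The members and lists were chosen with earlier results of these data known. Promoters are RefSeq's, GRCm38.p6.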

Additional observations from a re-analysis of the deposited data

Results flagged for a closer look

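The arrays with treated RNA in Cy5 and those with it in Cy3 gave different changes for 2 members when limma was fitted over 6 arrays with a dye term. That fit called 554 of 11364 features, a share like that of the 41 members. Psma1, a core subunit, had a mean of -0.22 in Cy5 and 0.28 in Cy3, so that its Cy5 mean minus its change over all arrays was -0.25 (adjusted p = 0.0401). Psmd10, a base chaperone, had means of 0.16 and 0.52, and the same difference was -0.18 (adjusted p = 0.0420). Those means average 2 probes, and the orientations overlapped on the probe called for treatment but not on the other. The limma test of the same difference over 3 sets called neither gene.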

How the results depend on the processing

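Psme2b, Psmd8 and Psmg2 kept their calls in all 14 alternatives that left the threshold and the averaging of probes as they were. Psma4, Psma6, Psmc1 and Psmd10 among these lost theirs only on the Cy5 arrays alone, and Psmc5, Psmd12 and Psmc6 also lost theirs when any 1 set was left out. The 12 members called higher became 3 on the Cy5 arrays alone and 14 on the Cy3 arrays alone, 5 at an adjusted p below 0.01, 1 against a 1.2-fold change, and 6 to 10 without 1 set. The 1 called lower became 2 with a random replicate block, 2 with exact zeros kept and 0 against a 1.2-fold change. On the Cy5 and Cy3 arrays alone, respectively, class medians were 0.024 and 0.12 for the core, 0.093 and 0.20 for the cap, 0.26 and -0.088 for the activators, and 0.036 and -0.042 for the chaperones. The chaperone median was also above 0 over single probes (0.044) and ran from -0.038 to 0.025 without 1 set. The cause was not tested. Deviations of same-numbered arrays correlated at -0.48, -0.51 and -0.020 for sets 1 to 3, while the Cy5 array of set 1 correlated at 0.45 with the Cy3 array of set 2, and the Cy5 array of set 2 at 0.53 with the Cy3 array of set 1. The numbers are thus not shown to pair the arrays, and the main test's set averages, with every SD and adjusted p over 3 sets, rest on them by convention. With the set number as a fixed replicate block 9 members were higher, without Pomp (limma adjusted p = 0.0539), Psmc5 (0.0668) and Psmd12 (0.0684), with it as a random block 15, and with 6 arrays and no set number 14. Signal over background is unknown, and about 1.2-fold changes were recovered less often in simulation.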

Other observations

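Complexes built on the same plan as the cap's lid, or of similar size, gave values for comparison. Of 9 subunits of the COP9 signalosome, which removes NEDD8 from cullin ligases and resembles the lid, 8 were measured, with 0 higher (14.0% of all features), 2 lower (Gps1 at -0.18 and Cops4 at -0.15, against 15.0% of all features) and a median of 0.020. Of 8 subunits of the chaperonin CCT, which folds actin and tubulin, 6 were measured, with 0 called in either direction by limma and a median of 0.036. At the lid 3 of 7 were higher with a median of 0.13, of which Psmd12 and Psmd14 were not called without set 1, and no test of the difference between these complexes was made.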
